A study of Mus musculus with 4 samples.

Results

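Nuclear receptors are transcription factors that many small lipophilic molecules switch on or off, and coregulators are the proteins they recruit to activate or silence genes. Here 41 such genes, receptors other than the Hnf4 genes and Vdr together with main coregulators, were followed in whole kidneys of mouse embryos in which the nuclear receptor gene Hnf4a had been deleted in the nephron lineage. They were found by gene symbol among 23852 names in the tables. The measure was FPKM, which divides a gene's fragments by the length of its transcript and by the number of fragments mapped, as deposited by the authors. Of the 41, 40 had a row of their own in all 4 libraries, and 34 reached an FPKM of 1 in at least 2 libraries and were tested.

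The 2 mutant libraries came from kidneys with both Hnf4a alleles conditional (Hnf4a c/c ; Six2GFPcre), and the 2 control libraries from kidneys with 1 conditional allele (Hnf4a c/+ ; Six2GFPcre). All were taken at E18.5, shortly before birth, from mice of mixed strain. Six2GFPcre, a Cre recombinase made in nephron progenitors, was carried by both groups, so the controls could also lose 1 Hnf4a copy in nephron cells. Cells that do not descend from those progenitors, such as collecting duct, stroma and vessels, are outside the deletion. The labels name no animals and do not say whether a library held kidneys of 1 animal or of several.

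Most receptors of this family bind DNA around the hexamer AGGTCA. Many, including those for bile acids, oxysterols, fatty acids, retinoic acid and thyroid hormone, do so as a pair with a retinoid X receptor (RXR), which makes RXR a shared partner. Coactivators of the p160 family join the receptor when its ligand is bound, and the corepressor Ncor1 holds unliganded receptors in a silent state. In the kidney, receptors of this family are known for control of bile acid and lipid handling in tubules, of salt transport, and of nephron and ureteric growth through retinoic acid.

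Each library had from 13552 to 13646 named genes that reached 1 FPKM. The tables hold no read totals, so absolute depth is unknown. Among genes under 0.1 FPKM the most frequent log2 ratio of each other library over mutant replicate 2 was 0.2, and among the other libraries it was 0. Replicate 1 of each group carried the Y-linked transcripts, and replicate 2 of each group carried Xist, so the replicates of a group differed in sex and were not 1 sample prepared again. The summed FPKM of 10 proximal tubule markers was 185 and 189 in mutant libraries, against 490 and 403 in control libraries. Both mutant libraries lay below both control libraries for 10 of 10, against 17.1% of all tested genes. Of the markers, 1 was lower at an adjusted p under 0.05 with limma, against 0.113% of all tested genes. The part of the marker difference in the lower values of members and target genes was not tested.

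No member of the family passed the test, and most differed little in level between mutant and control kidneys. With limma on log2(FPKM + 1) and Benjamini-Hochberg adjustment over all 13287 tested genes, 0 of the 34 tested members passed an adjusted p under 0.05, where 0.158% of all tested genes passed (0.0452% higher and 0.113% lower). Counting members with an unadjusted p under 0.05 gave 2 lower and 0 higher in the mutant libraries. They were Nr1h4, the bile acid receptor FXR, and Rxrb, an RXR. These 2 make 5.88% of the tested members, and 7.24% of all tested genes had such a p (2.67% higher and 4.57% lower), so the share is near the background. Which members have such a p depends on single libraries, and leaving out a library also unbalances sex between the groups. Without mutant replicate 1 there were 0, without mutant replicate 2 they were Nr1h4 and Nr1d1 as lower and Nr1d2 as higher, without control replicate 1 Rxrb and Nr4a1 as lower, and without control replicate 2 Rxrb and Rara as lower and Rarb and Nr4a2 as higher.

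Changes of the members were small. The median log2 change was -0.0001 over the tested members and 0.02 over all tested genes, with 17 members above and 17 below 0. The median absolute log2 change was 0.10 over the members and 0.12 over all tested genes. One member, Nr1h4, had an absolute log2 change of 0.5 or more, which is 2.94% of the members against 8.16% of all tested genes. In 17 of the 34 members the mutant and control values did not overlap, 7 with both mutant libraries higher and 10 with both lower, where 39.8% of all tested genes did not overlap (22.7% higher and 17.1% lower).

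**Figure D1:**
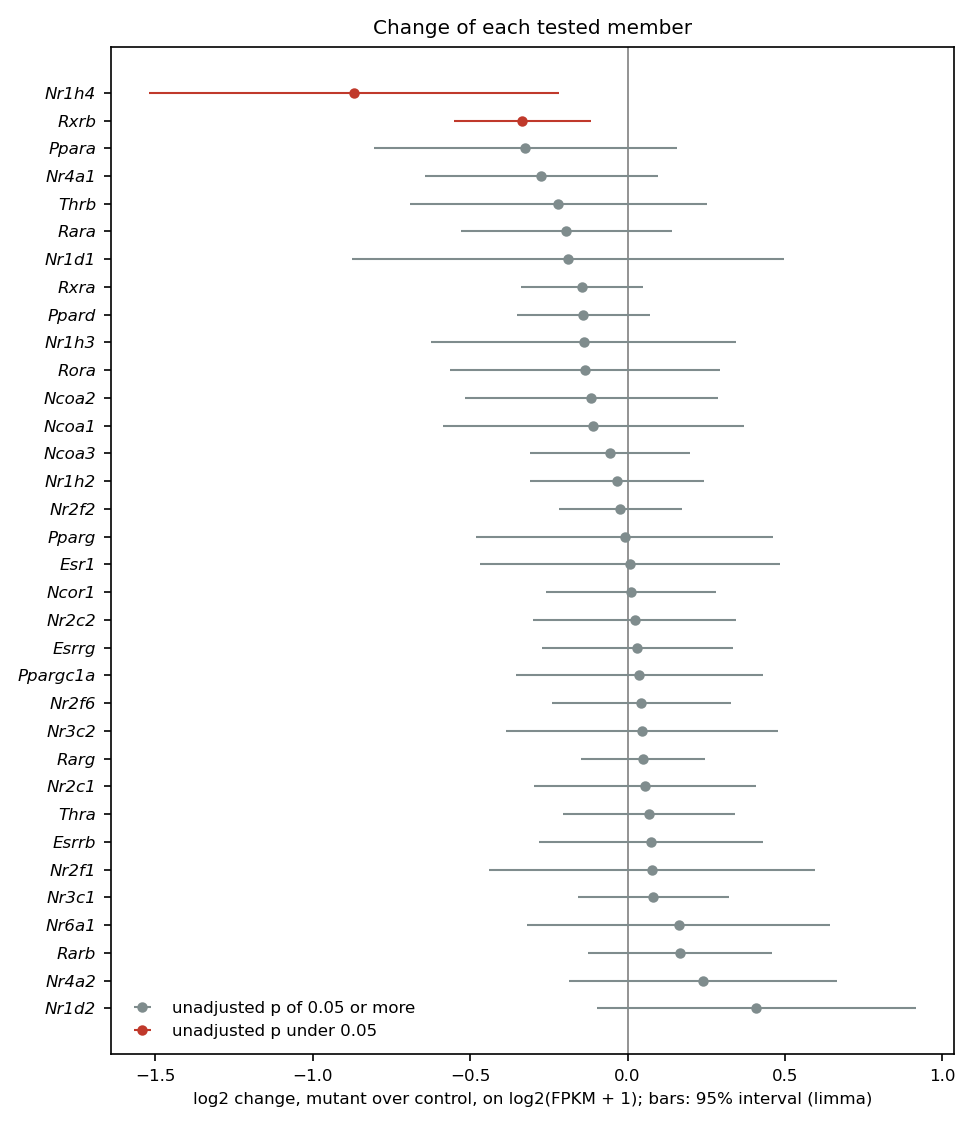
Log2 change (mutant over control, on log2(FPKM + 1), horizontal axis) of the 34 tested nuclear receptors and coregulators, with 95% intervals from limma. The intervals of Nr1h4 and Rxrb, in red, lie below 0, and those of the other members include 0.

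Nr1h4 and Rxrb had the smallest p-values of the family, so sequence in front of 1 RefSeq start of each (build GRCm38.p6) is shown. RefSeq listed 1 promoter for Nr1h4 and 2 for Rxrb, and the deposited rows gave each gene 2 start sites. Which start is used in these kidneys was not tested. For Nr1h4 the sequence is the 250 bases before the start listed, on the minus strand of chr10:89506659-89506908. For Rxrb it is the 121 bases on the plus strand of chr17:34031691-34031811, between 1 of its starts and the start of Slc39a7. Slc39a7 is a zinc transporter gene that runs the other way. Capitals mark a match to AGGTCA on either strand.
Nr1h4: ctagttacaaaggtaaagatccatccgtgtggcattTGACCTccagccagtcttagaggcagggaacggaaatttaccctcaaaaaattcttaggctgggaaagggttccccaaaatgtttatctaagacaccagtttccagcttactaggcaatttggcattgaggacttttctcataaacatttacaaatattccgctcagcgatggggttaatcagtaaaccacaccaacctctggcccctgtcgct
Rxrb: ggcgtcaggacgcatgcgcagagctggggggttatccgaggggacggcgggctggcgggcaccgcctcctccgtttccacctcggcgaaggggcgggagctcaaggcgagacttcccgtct

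The sequences differ in composition, with a GC content of 44.4% and 5 CG dinucleotides in front of Nr1h4 and of 71.1% and 14 CG dinucleotides in front of Rxrb. The median GC content over 32851 promoters of 250 bases was 52.4%. The Nr1h4 window holds AGGTCA once, on the opposite strand, beginning 214 bases before the start. This hexamer was present in 10 of 57 promoters of members (17.5%) and in 14.0% of all promoters. Further letter patterns were searched on both strands in the windows of 250 bases. CAAAGTCCA, a motif known for HNF4 factors, was in 0 member promoters and 0.384% of all. A direct repeat of AGGTCA with 1 base between the copies, which contains the hexamer, was in 0 member promoters and 0.0335% of all. The E-box CACGTG was in 4 member promoters (7.02%) and in 6.02% of all. Of the 41 members, 37 had a promoter in the RefSeq table. A match is a description of the letters in this window only.

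Among the receptors for bile acids, oxysterols and xenobiotics, the bile acid receptor Nr1h4 stood lowest relative to control. It lies on chromosome 10 from 88916979 to 88996367 in build mm9. Its level was at 2.31 and 3.94 FPKM in the mutant libraries, against 6.67 and 6.11 FPKM in the control libraries. The groups did not overlap, and mutant replicate 1 was the lower of the mutant pair. The summed level of 5 hepatocyte markers was 4.51 and 40.5 FPKM in mutant and 2.01 and 4.78 FPKM in control libraries. The part of these markers in the Nr1h4 value of mutant replicate 2 was not tested. The mutant mean was 48.9% of the control mean, with a log2 change of -0.87 (SE 0.24, 95% interval -1.52 to -0.22), an unadjusted p of 0.0198 and an adjusted p of 0.511 with limma. The authors' intervals were 1.46 to 3.21 and 2.87 to 5.01 FPKM in the mutant libraries, and 5.18 to 8.16 and 4.68 to 7.54 FPKM in the control libraries, so those of mutant replicate 2 and control replicate 2 overlapped. The locus had the same bounds in all 4 libraries and no other named locus over it. The summed proximal tubule markers given above were lower in the same libraries, and their part in the Nr1h4 difference was not tested. In RNA of whole kidneys, fewer cells of a type and less RNA per cell cannot be told apart.

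The oxysterol receptor Nr1h2 (LXRβ) was the most abundant gene of this group, at 43.8 and 46.0 FPKM in mutant and 49.6 and 42.5 FPKM in control libraries. Its groups overlapped, with a log2 change of -0.03 (SE 0.10, unadjusted p = 0.766, adjusted p = 0.94 with limma). Nr1h3 (LXRα) was at 2.33 and 1.79 against 2.47 and 2.26 FPKM, also with overlap. The xenobiotic receptor Nr1i2 (PXR) was under 1 FPKM in every library and not tested, at 0.434 and 0.456 FPKM in mutant and 0.663 and 0.790 FPKM in control libraries. Nr0b2 (SHP), a receptor without a DNA-binding domain that FXR induces in liver, was at 0.299 and 0.258 FPKM in mutant and 0.149 and 0.733 FPKM in control libraries. Its control values lay on both sides of the mutant values. The xenobiotic receptor Nr1i3 (CAR) was listed at 0 in all 4 libraries.

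The retinoid receptors were all abundant except Rxrg, and Rxrb was the member with the smallest p. The Rxrb locus spans 34168757 to 34175348 of chromosome 17 in build mm9. Rxrb was at 33.8 and 33.0 FPKM in the mutant libraries, against 40.7 and 44.0 FPKM in the control libraries. Its mean was 33.4 ± 0.564 FPKM in mutant and 42.4 ± 2.32 FPKM in control libraries (SD, n = 2 each), 78.8% of control. The log2 change was -0.33 (SE 0.08, 95% interval -0.55 to -0.12), with an unadjusted p of 0.0119 and an adjusted p of 0.422 with limma. It was the single tested member whose authors' intervals stood apart between the groups, with upper ends of 36.9 and 35.9 FPKM in mutant and lower ends of 37.2 and 39.0 FPKM in control libraries. The same held for 2.86% of 13251 tested genes with 1 row per table (0.498% higher and 2.36% lower).

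The rows next to Rxrb were assembled differently by group. Its neighbours H2-Ke6 and Slc39a7 shared 1 joint row in both mutant libraries, at 163 and 168 FPKM. They had separate rows in both control libraries, H2-Ke6 at 52.1 and 55.4 FPKM and Slc39a7 at 88.9 and 85.3 FPKM. The Rxrb row itself kept the same bounds in all 4 libraries, and control replicate 2 also had an unnamed locus inside it at 7.38 FPKM. The part of these assemblies in the Rxrb value was not tested.

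The mutant means of the other tested retinoid receptors ran from 86.5% to 112% of the control mean. Rxra was at 34.0 and 34.8 FPKM in mutant and 38.3 and 38.1 FPKM in control libraries, 90.2% of the control mean (log2 change -0.14, SE 0.07, unadjusted p = 0.111 with limma). Rara was at 22.8 and 21.8 against 28.3 and 23.2 FPKM. Both lay lower in each mutant library than in either control library. The retinoic acid receptors Rarb, at 31.7 and 29.9 against 25.3 and 29.5 FPKM, and Rarg, at 36.0 and 35.8 against 35.1 and 34.2 FPKM, lay higher. Thus the 5 tested retinoid receptors all had groups that did not overlap, 3 lower and 2 higher, with adjusted p-values from 0.422 to 0.861, where 39.8% of all tested genes did not overlap. The sizes for Rara and Rarb rest on the control pair. The log2 change of Rara was -0.06 without control replicate 1 and -0.33 without control replicate 2, and that of Rarb was 0.06 and 0.27 in the same order. Rxrg was under 1 FPKM throughout, at 0.835 and 0.244 FPKM in mutant and 0.282 and 0.347 FPKM in control libraries.

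**Figure D2:**
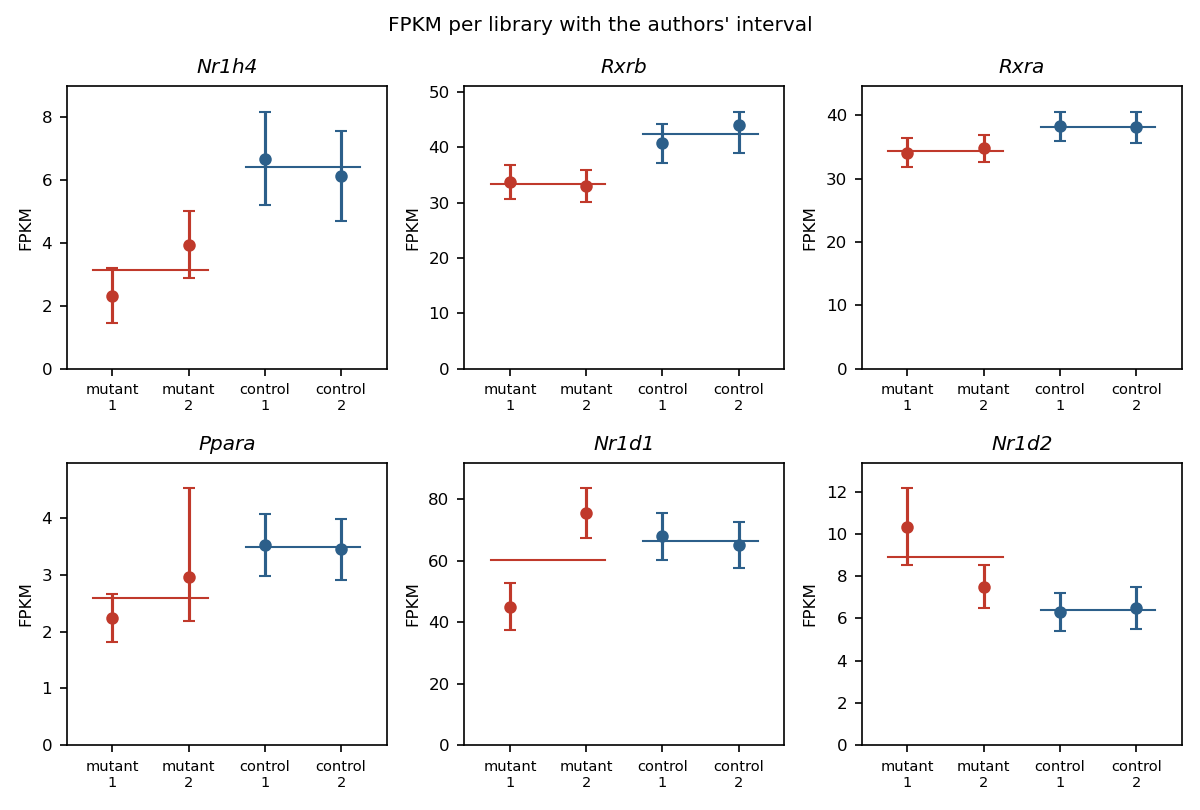
FPKM (vertical axis, from 0) of 6 members in each library, with the authors' interval as the bar and the group mean as a line. Rxrb intervals stand apart between mutant and control libraries, and the mutant libraries lie on both sides of the control libraries for Nr1d1.

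The peroxisome proliferator-activated receptors (PPARs), sensors of fatty acids, kept their order of level in both groups. Ppard was the highest, at 25.2 and 25.1 FPKM in mutant and 27.8 and 27.9 FPKM in control libraries, with a log2 change of -0.14 (SE 0.08, unadjusted p = 0.145, adjusted p = 0.763 with limma). Ppara, which drives fatty acid oxidation genes, was at 2.24 and 2.96 FPKM in mutant and 3.52 and 3.45 FPKM in control libraries. Both genes were lower in each mutant library than in either control library, though not past the threshold, and the mutant mean of Ppara was 74.6% of control (unadjusted p = 0.138). Pparg, the adipocyte receptor that is also made in urothelium, overlapped at 5.62 and 4.99 against 4.72 and 6.02 FPKM. The summed level of 5 adipocyte markers was at most 0.182 FPKM in any library, with Adipoq listed at 0 in all. Ppargc1a (PGC-1α), a coactivator of mitochondrial genes, was at 11.4 and 11.7 FPKM in mutant and 10.1 and 12.5 FPKM in control libraries, the mutant values lying between the control values.

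Among the receptors for steroid and thyroid hormones, Thrb and Nr3c1 had groups that did not overlap, and Thra, Nr3c2 and Esr1 overlapped. Thra, the main thyroid hormone receptor gene of this tissue by level, was at 93.6 and 86.2 FPKM in mutant and 79.7 and 92.0 FPKM in control libraries, a log2 change of 0.07 (SE 0.10, unadjusted p = 0.537, adjusted p = 0.862 with limma). Thrb, the second receptor gene for that hormone, was at 1.15 and 1.44 FPKM in mutant and 1.76 and 1.59 FPKM in control libraries, 77.6% of the control mean and without overlap (unadjusted p = 0.274). The glucocorticoid receptor Nr3c1 was at 25.02 and 24.0 against 22.4 and 23.8 FPKM. That is 106% of the control mean, again without overlap, and the 95% interval of its log2 change ran from -0.16 to 0.32. The mineralocorticoid receptor Nr3c2, which acts in the distal nephron and collecting duct, was at 3.26 and 3.37 against 3.46 and 2.92 FPKM. The oestrogen receptor Esr1 was at 2.43 and 1.92 against 2.24 and 2.05 FPKM, and both of these overlapped.

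The oestrogen-related receptors, orphan receptors that control mitochondrial genes, differed little in level between groups. Esrrg was at 14.5 and 16.3 FPKM in mutant and 15.2 and 14.9 FPKM in control libraries, with a log2 change of 0.03 (SE 0.11, unadjusted p = 0.798, adjusted p = 0.949 with limma). Esrrb was at 6.74 and 6.42 FPKM in mutant and 6.27 and 6.12 FPKM in control libraries, 106% of the control mean. Its groups did not overlap, and the 95% interval of its log2 change ran from -0.28 to 0.43. Esrra had a row of its own only in replicate 2 of each group, at 43.6 FPKM in the mutant and 47.1 FPKM in the control library. In replicate 1 of each group it shared a row with the microRNA gene Mir6990, at 40.8 FPKM in the mutant and 42.3 FPKM in the control library. With that row counted as Esrra, a choice made after seeing the data, the log2 change was -0.08 (unadjusted p = 0.419, adjusted p = 0.819 with limma).

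For the circadian receptors Nr1d1 and Nr1d2, the mutant libraries differed from each other more than the control libraries did. Nr1d1 (REV-ERBα), a repressor at the core of the clock, was at 45.0 and 75.3 FPKM in the mutant libraries, against 67.9 and 65.1 FPKM in the control libraries. Mutant replicate 1 lay below and mutant replicate 2 above both controls, and the log2 change was -0.19 (SE 0.26, unadjusted p = 0.50, adjusted p = 0.849 with limma). Its log2 change was 0.18 without mutant replicate 1 and -0.55 without mutant replicate 2. Nr1d2 (REV-ERBβ), its close relative, had the largest positive change of the family, at 10.4 and 7.51 FPKM in mutant and 6.30 and 6.504 FPKM in control libraries. Its mutant mean was 140% of control (log2 change 0.41, SE 0.19, unadjusted p = 0.0896, adjusted p = 0.76). Its log2 change was 0.20 without mutant replicate 1, below that of Nr4a2 in the same fit, and 0.62 without mutant replicate 2. Rora, an activator that binds the same sites as REV-ERB proteins, was at 2.502 and 2.44 against 2.63 and 2.99 FPKM. The Nr1d1 and Thra loci overlap on opposite strands at their ends, and no source states that strand was used, so reads in the overlap cannot be assigned with certainty.

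The 5 NR2 orphan receptors overlapped between groups, and they include Nr2f6, the member with the highest level in control libraries. Nr2f6 (EAR2) was at 112 and 93.8 FPKM in mutant and 101 and 97.7 FPKM in control libraries (log2 change 0.04, SE 0.11, unadjusted p = 0.698, adjusted p = 0.918 with limma). Nr2f2 (COUP-TFII), a receptor of stroma and vessels, was at 62.4 and 62.5 against 65.7 and 61.3 FPKM. Nr2f1 (COUP-TFI) was at 31.7 and 24.2 against 23.0 and 29.9 FPKM. Of all the members in control libraries, Nr2f6 ranked first at 99.3 ± 2.26 FPKM, above Thra at 85.8 ± 8.68 FPKM (SD, n = 2 each). Nr1d1 at 66.5 ± 1.98 and Nr2f2 at 63.5 ± 3.15 FPKM followed. The control values of Nr2f6, Thra and Nr1d1 did not overlap each other, and those of the neighbours Nr1d1 and Nr2f2 did. The testicular receptors Nr2c1 and Nr2c2 averaged 8.55 and 10.02 FPKM in mutant and 8.19 and 9.85 FPKM in control libraries.

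The NR4A receptors, which are induced within minutes by many stimuli and act without a classical ligand, had values on different sides of control, and none passed the threshold. Nr4a1 was at 10.3 and 11.1 FPKM in mutant and 12.0 and 14.3 FPKM in control libraries, a log2 change of -0.27 (SE 0.14, unadjusted p = 0.112, adjusted p = 0.763 with limma). Nr4a2 was at 11.1 and 10.8 against 8.05 and 10.3 FPKM, a log2 change of 0.24 (SE 0.16, unadjusted p = 0.20). The Nr4a2 change was 0.08 without control replicate 1 and 0.40 without control replicate 2, and that of Nr4a1 was -0.39 and -0.16 in the same order. Neither gene's groups overlapped. Nr4a3 was under 1 FPKM, at 0.163 and 0.140 against 0.243 and 0.398 FPKM, and not tested. Of the remaining orphan receptors, Nr6a1 (GCNF), a repressor of germ cell and pluripotency genes, was at 1.25 and 1.14 against 0.839 and 1.09 FPKM (log2 change 0.16, SE 0.18, unadjusted p = 0.411, adjusted p = 0.818 with limma). Nr5a2 (LRH-1), a regulator of bile acid synthesis in liver, was at 0.517 and 0.583 against 0.454 and 0.545 FPKM and was not tested.

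The mutant means of the 4 coregulators ran from 91.1% to 101% of the control mean. Ncor1 was at 39.7 and 44.8 FPKM in mutant and 43.9 and 39.9 FPKM in control libraries, a log2 change of 0.01 (SE 0.10, 95% interval -0.26 to 0.28, unadjusted p = 0.922, adjusted p = 0.982 with limma). The p160 coactivators Ncoa1, Ncoa2 and Ncoa3 averaged 9.88, 13.7 and 17.8 FPKM in mutant and 10.8, 14.99 and 18.51 FPKM in control libraries. Of these, Ncoa3 was lower in both mutant libraries, at 17.7 and 17.8 against 18.98 and 18.04 FPKM.

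**Figure D3:**
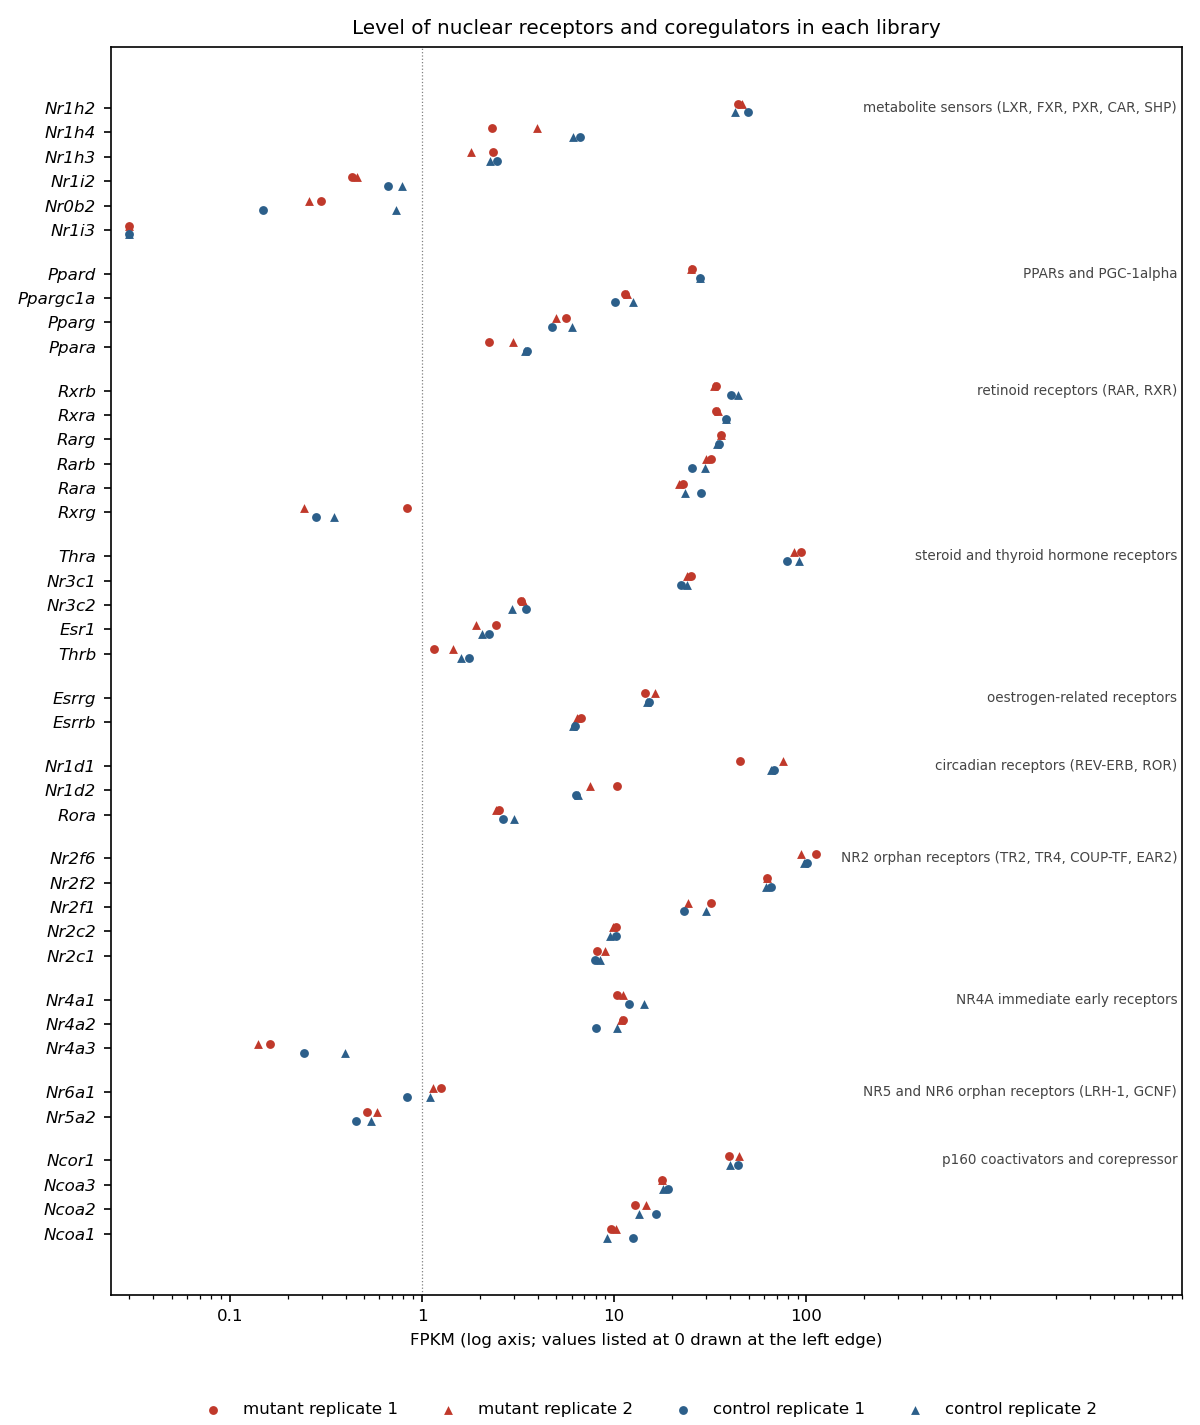
FPKM (log axis) of the 40 members with a row of their own in all 4 libraries, by class of receptor or coregulator, with 1 point per library. Mutant and control points lie close together for most members, Nr2f6 and Thra stand highest, and Nr1i3 is listed at 0 in all libraries.

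Genes related to these receptors were read from 11 lists. The lists hold genes known to respond to the receptors, to supply their ligands or to act in their hormone pathways. They also hold clock genes, further coregulators and further nuclear receptors. None of their tested genes passed over all genes with limma, and 11 different genes had an unadjusted p under 0.05, 8 lower and 3 higher in the mutant libraries. They make 8.73% of the 126 different genes tested, near the 7.24% of all tested genes with such a p. By direction, 6.35% were lower and 2.38% higher, against 4.57% and 2.67% of all tested genes. The lists count genes in whole kidney and were chosen with earlier results known, and none of them shows the activity of a receptor.

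Of 4 tested genes on the list for FXR, the bile acid receptor Nr1h4, 1 was lower at an unadjusted p under 0.05 and 0 were higher. Among all tested genes, 4.57% were lower and 2.67% higher at such a p. The lower gene was Slc51b, the β subunit of the basolateral transporter that carries bile acids out of cells. Slc51b was at 9.28 and 8.23 FPKM in mutant and 19.2 and 24.5 FPKM in control libraries. Its mutant mean was 40.0% of control, with a log2 change of -1.22 (SE 0.16, unadjusted p = 0.0011, adjusted p = 0.137). The other tested genes of this list, named here after their values were seen, did not have such a p. Slc51a, the partner subunit, overlapped at 2.75 and 1.14 against 5.88 and 1.998 FPKM. The bile acid importer Slc10a2 was at 0.575 and 1.90 against 4.67 and 2.44 FPKM. The growth factor gene Fgf15 lay on the other side of control, at 1.19 and 2.43 FPKM in mutant and 0.509 and 1.002 FPKM in control libraries. The Slc51b locus overlaps that of Rasl12, so reads in the overlap cannot be assigned with certainty. Of 5 tested genes on the list for PXR and CAR, 2 were lower and 0 higher at an unadjusted p under 0.05. The export pump Abcc2 was at 1.87 and 1.82 against 6.75 and 8.43 FPKM (unadjusted p = 0.0005, adjusted p = 0.096). The glutathione transferase Gsta1, which has close copies that could share its reads, was at 9.89 and 12.2 against 19.8 and 21.1 FPKM. The proximal tubule markers were lower in the same libraries, and their part in these values was not tested.

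Among 22 tested PPAR target genes, 3 had an unadjusted p under 0.05, all with lower values in the mutant libraries. The share of all tested genes lower at such a p was 4.57%, and the list's median log2 change was -0.06. The 3 genes include the peroxisomal enzymes Ehhadh, at 4.96 and 5.16 FPKM in mutant and 10.2 and 9.53 FPKM in control libraries, and Acaa1b, at 25.5 and 31.4 against 40.6 and 34.6 FPKM. Both were lower in each mutant library than in either control library, as were the proximal tubule markers. Acaa1b has a close copy in Acaa1a, which overlapped between groups. Of 12 tested genes on the list for oestrogen-related receptors and PGC-1α, 0 had such a p, with a median of 0.02. Its most abundant genes were Cox6a1, at 248 and 219 against 242 and 247 FPKM, and Atp5b, at 215 and 195 against 214 and 218 FPKM.

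Of 13 tested genes that supply or answer to retinoic acid, 2 had an unadjusted p under 0.05, both with higher values in the mutant libraries. The share of all tested genes higher at such a p was 2.67%. Aldh1a1, which oxidises retinaldehyde to retinoic acid, was at 11.6 FPKM in both mutant libraries, against 7.17 and 6.66 FPKM in control libraries. Its mutant mean was 168% of control, with a log2 change of 0.67 (SE 0.12, unadjusted p = 0.0041, adjusted p = 0.25). Lrat, which stores retinol as esters and whose locus overlaps that of Rbm46os, was at 1.66 and 1.40 against 0.659 and 0.701 FPKM. The list's median was 0.02. On the 10 tested genes of the LXR list 0 had an unadjusted p under 0.05, with a median of -0.16. Its most abundant genes were Apoe, at 118 and 115 against 129 and 133 FPKM, and Srebf1, at 39.8 and 31.9 against 41.8 and 37.5 FPKM.

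Genes of steroid hormone action and the clock had 0 members at an unadjusted p under 0.05 among 14 and 16 tested, with medians of -0.02 each. Hsp90ab1, a chaperone of steroid receptors, was at 227 and 206 against 227 and 224 FPKM, and Fkbp4, its partner, at 129 and 124 against 124 and 126 FPKM. Of clock genes, Cry1 was at 20.7 and 23.0 against 20.9 and 21.1 FPKM and Bhlhe40, a repressor in the clock, at 14.7 and 21.2 against 21.9 and 25.1 FPKM. The values of Bhlhe40 were lower in both mutant libraries, without passing the test. On the thyroid hormone list, 1 of 3 tested genes was lower at an unadjusted p under 0.05, against 4.57% of all tested genes. That gene was Me1 (malic enzyme), at 12.8 and 11.2 against 17.4 and 16.5 FPKM (unadjusted p = 0.0139 with limma). The Me1 locus overlaps another named locus.

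Of 26 other coregulators, 1 was lower and 1 was higher with an unadjusted p below 0.05, and the list's median was -0.05. Among all tested genes, 4.57% were lower and 2.67% higher at such a p. Trim24, a corepressor that binds retinoic acid receptors, was at 17.7 in both mutant libraries and at 29.1 and 39.2 FPKM in control libraries. Its mutant mean was 51.8% of control (log2 change -0.90, SE 0.16, unadjusted p = 0.0039, adjusted p = 0.241). Smarcd3, a subunit of the SWI/SNF chromatin remodeller, was at 34.4 and 36.6 against 30.5 and 28.9 FPKM, and in mutant replicate 2 its locus was extended over a neighbouring gene. Of 6 other tested nuclear receptors 0 had such a p. The most abundant of these were Hnf4a, whose whole-gene value was at 87.1 and 78.5 against 89.3 and 84.6 FPKM, and Vdr, the vitamin D receptor, at 14.98 and 14.6 against 13.7 and 17.3 FPKM. Which part of Hnf4a is removed was not analysed here, so its whole-gene value does not check the deletion.

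**Figure D4:**
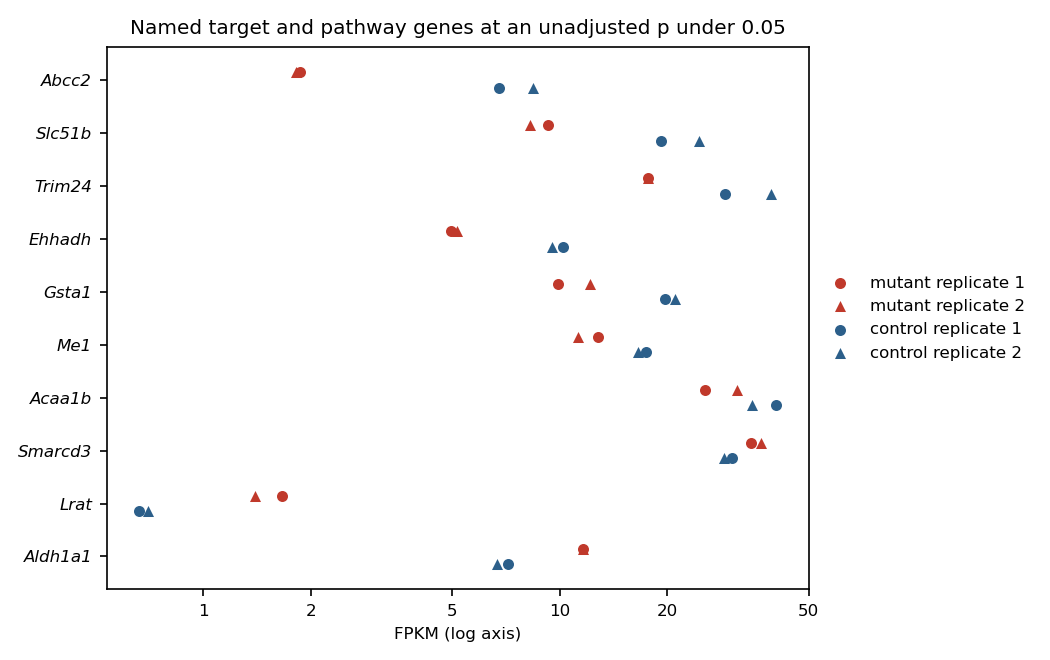
FPKM (log axis) in each library of 10 named target, pathway and coregulator genes with an unadjusted p under 0.05. Both mutant libraries lie below both control libraries for 7 genes, from Abcc2 to Acaa1b, and above them for Smarcd3, Lrat and Aldh1a1.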

How the data were processed

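Poly(A) RNA of whole kidneys was sequenced, per the labels' protocols. The authors computed the deposited FPKM values and their interval, with TopHat2 2.0.11, Bowtie 1.0.0, SAMtools 0.1.19, Cufflinks 2.1.1 and build mm9, per the submitters' processing notes; no source used here gives the annotation. Loci were assembled per library, so a gene's bounds can differ between tables, as they did for 19 tested members. A gene on the opposite strand overlapped 8 tested members.

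Rows were joined by symbol and FPKM summed over rows that share one. Of 22761 names in all 4 tables, 99 with a row not marked OK were left out. Genes that reached 1 FPKM in 2 or more libraries entered limma 3.58.1 in R 4.3.3 as log2(FPKM + 1), with a mean-variance trend and no covariates, with p adjusted over all tested genes at 0.05. A fold change on this scale understates the change of low genes. The test was checked on data simulated with the spread of these libraries. Changes were placed only in the more abundant genes, so the check does not cover members of low level. The authors' interval was symmetric in the table of control replicate 1 and not in 45.4% to 47.4% of the rows of the others.

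Members and lists were chosen with earlier results of these data known. The rule for named genes gave every member, with full statistics for those past the threshold, at an unadjusted p under 0.05 or highest in their class. From each list it gave genes past the threshold, else up to 3 with the smallest unadjusted p under 0.05, else the 2 most abundant. One gene that this rule names is counted in its list but not reported here.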

Additional observations from a re-analysis of the deposited data

How the results depend on the processing

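No member passed an adjusted p under 0.05 with limma under any of 16 other settings, 1 of which was chosen after seeing the data. The smallest adjusted p of any member was 0.245, for Rxrb and Rara without control replicate 2. The count of lower members at an unadjusted p under 0.05 was 2 under every alternative that kept all libraries, and with a library left out it ranged from 0 to 2, and that of higher members from 0 to 2. Nr1h4 kept such a p in 12 and Rxrb in 13 of 15 alternatives, the log2 change of Nr1h4 ranging from -1.16 to -0.58 with a library left out. The p of Nr1h4 was 0.0878 without control replicate 1, 0.065 without control replicate 2 and 0.0589 without mutant replicate 1. That of Rxrb was 0.072 without mutant replicate 1 and 0.0935 without mutant replicate 2. The median member change ranged from -0.0525 to 0.0179 with a library left out. The sign of 16 tested members turned in at least 1 alternative.

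Over all genes, 6 were higher and 15 lower at an adjusted p under 0.05 in the main fit. The counts were 2 higher with FPKM of at least 1 in all 4 libraries, 6 lower with no filter, 7 lower with no mean-variance trend, and 13 higher and 66 lower at an adjusted p under 0.1. With a library left out they ranged from 0 to 4 higher and from 0 to 17 lower, with 0 called without either control library. A lone remaining library was assumed to vary like the pair in the other group. A fit with replicate block gave 3 genes higher and 3 lower, with 0 members called. The labels do not pair the numbers, but replicate 1 of each group carried the Y-linked transcripts and replicate 2 carried Xist. The block therefore also separated the sexes, and the main fit had no term for sex. Any fit with a library left out had sex unbalanced between the groups. The differences between replicates correlated at 0.146 across genes between the groups. The cause of the shifts in these counts was not tested. Depth is unknown and limits what can be said of members under 1 FPKM.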

Other observations

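Some genes of the lists were set apart by 1 library. They were named after their values were seen, none passed the threshold, and no cause was tested. The clock output gene Hlf was at 2.89 and 8.12 FPKM in mutant and 3.03 and 3.52 FPKM in control libraries, and the clock repressor Bhlhe41 at 0.777 and 5.01 against 1.27 and 1.20 FPKM, so that mutant replicate 2, which also had the highest Nr1d1, was the high library for both. The fatty acid-binding protein gene Fabp3 was at 142 and 258 against 147 and 146 FPKM, high in mutant replicate 2. The summed level of 5 hepatocyte markers also stood apart in that library, at 4.51 and 40.5 FPKM in mutant and 2.01 and 4.78 FPKM in control libraries. Its part in the values of Hlf, Bhlhe41, Fabp3, Nr1d1 and other genes, among them Nr1h4 and Ppara, was not tested. The histone acetyltransferase gene Ep300, a coactivator of many nuclear receptors, was at 35.9 and 22.3 against 19.8 and 17.3 FPKM, higher in both mutant libraries (unadjusted p = 0.071).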
